A study of Mus musculus with 90 samples.

Results

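Saa3, Ccl7, Ccl11, Mmp3, Il1rl1, S100a4, Mgp, Dcn, Prrx1 and Twist2 are genes of fibroblasts and mesenchyme, and their RNA was followed through 2 courses of differentiation of mouse embryonic stem cells. They are 10 of 24961 genes in the table of the embryoid body (EB) series and 10 of 24984 in that of the neural progenitor (NPC) series. They were chosen by name, because earlier work on the same counts had found them high in WT stem cells and lower on later days. Day 0 levels, their size relative to later days, and every comparison that uses WT libraries of day 0 or of the last day are therefore given as a description, with counts of calls but no p for any one of the 10. The days compared in that work are not named. WT libraries of day 0 and of the last day are taken throughout to have entered the choice. WT libraries of day 6 may have entered it too. Tests of the 10 against WT on day 6 carry that limit. All 10 were present in each table and passed the filter on low counts, which day 0 libraries alone could meet. Of the 10, Il1rl1 encodes a receptor and Prrx1 and Twist2 encode transcription factors, so the name of secreted and inflammatory feeder genes covers only some of them.

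Embryonic stem cells are often grown on embryonic fibroblasts that no longer divide and that supply matrix and growth factors. Fibroblasts under inflammatory stimulation release acute-phase proteins, chemokines that call in leukocytes, and matrix metalloproteinases. Mesenchyme of the embryo expresses transcription factors such as Prrx1 and Twist2 before and while it lays down matrix, so these factors are shared by cultured fibroblasts and by mesenchyme that forms anew.

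The day 0 samples of both series were mouse embryonic stem cells of the J1 line, and libraries were made from total RNA after removal of ribosomal RNA. All lines had been cultured on gelatin with mouse embryonic fibroblast feeders, serum and LIF, a cytokine that keeps stem cells undifferentiated. Feeders were removed before EBs were set up in hanging drops and before aggregation and retinoic acid treatment for NPCs, and the labels do not say separately whether the day 0 samples were cleared of them. The lines were CBX7-CaPS (CaPS), whose CBX7, a Polycomb subunit, carries the CBX2 domain for compaction and phase separation. CBX7-mCaPS (mCaPS) carries a mutated form of it, CBX7 KO (KO) was made to lack CBX7, CBX7-CaPS-R is named so without further description, and WT has the normal protein. The labels name no number of clones for a line. Each line was sampled on days 0, 6 and 10 in EBs and on days 0, 6 and 8 in NPCs, with 3 libraries in each of 30 groups, 90 in all. The labels do not say that these came from separate cultures, so p-values measure only the spread between these libraries, which may be technical.

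Libraries of CaPS, mCaPS, KO and WT held 10.6 to 55.9 M counts in EBs and 11.8 to 59.3 M in NPCs. Libraries of CBX7-CaPS-R held 11 to 109.98 M in EBs and 11.7 to 29.1 M in NPCs, over part of the genes. The ribosomal precursor Rn45s took 2.73% to 88.7% of the counts of the 4 lines in EBs and 4.24% to 50.3% in NPCs, and 25.0% to 65.2% in EBs and 27.8% to 80.5% in NPCs of CBX7-CaPS-R. The 6 EB libraries numbered 1 of CaPS and WT stood apart: 42.1% to 43.5% of their counts between 1 and 20 were even numbers, against 73.5% to 94.1% in the other 30. Their Gapdh level was 3.47 to 10.3 CPM (read counts per 1 M counts of the scaled library total). In the CaPS and WT libraries numbered 2 and 3 it was 51.1 to 496 CPM. In all EB libraries of mCaPS and KO it was 12.8 to 31.3 CPM, so Gapdh set them apart from CaPS and WT in every replicate number. Where a call of the 10 genes in EBs ended or arose without the 6 libraries numbered 1, this is stated. Levels, and counts and tests of other genes, are given with those libraries only. In KO stem cells of the EB series Cbx7 RNA was at 87.8 to 111 CPM, within the 56.9 to 391 CPM of the other lines. The labels do not say which part of the gene was removed, so this does not check them.

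RefSeq promoters of mouse build GRCm38.p6 matched 6 of the 10 genes. The 150 bases before the start are shown for Saa3 and Mmp3, which encode secreted products, and for the 2 transcription factors, because Mmp3 fell late in KO EBs, where Prrx1 and Twist2 rose. Capitals mark matches, on either strand, to AP-1 (TGANTCA), to C/EBP (TTGCNNAA), both families of factors that act on inflammatory genes, and to the TATAAA element. The kappaB consensus was searched as well. Saa3 lies at chr7:46715677-46715826 (minus strand), Mmp3 at chr9:7445672-7445821 (plus), Prrx1 at chr1:163313651-163313800 (minus) and Twist2 at chr1:91801311-91801460 (plus).
Saa3: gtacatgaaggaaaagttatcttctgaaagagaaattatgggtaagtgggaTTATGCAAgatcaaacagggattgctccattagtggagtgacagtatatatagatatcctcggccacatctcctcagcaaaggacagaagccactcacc
Mmp3: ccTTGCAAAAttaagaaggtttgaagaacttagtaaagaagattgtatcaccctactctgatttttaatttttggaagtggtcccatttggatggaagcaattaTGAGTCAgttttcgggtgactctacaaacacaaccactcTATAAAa
Prrx1: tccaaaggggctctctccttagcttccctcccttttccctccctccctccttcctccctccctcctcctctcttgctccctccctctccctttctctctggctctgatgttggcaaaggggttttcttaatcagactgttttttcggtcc
Twist2: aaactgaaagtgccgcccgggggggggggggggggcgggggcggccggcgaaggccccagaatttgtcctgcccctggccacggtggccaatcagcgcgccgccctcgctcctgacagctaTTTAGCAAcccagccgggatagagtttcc
The Saa3 window held a C/EBP match 99 to 92 bases before the start. The Mmp3 window held an AP-1 match 46 to 40 bases before it, a C/EBP match at 148 to 141 and a TATAAA match at 7 to 2. Twist2 had a C/EBP match at 29 to 22, and the Prrx1 window held none of the 4 motifs. Of 32841 promoter windows of this length, 4.24% held AP-1, 2.38% the kappaB consensus, 5.46% C/EBP and 7.57% TATAAA. Il1rl1 had a C/EBP match in the window of its first start and S100a4 a TATAAA match, and none of the windows held the kappaB consensus. A match describes letters and is not a binding site.

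On day 0 of the EB series all 10 RNAs were present in every library of CaPS, mCaPS, KO and WT. Saa3, an acute-phase serum amyloid A protein made outside the liver, lies on chromosome 7 (mm10, 46711998 to 46715676, minus strand). It was at 22.1, 28.7 and 2.80 CPM in CaPS, 16.7, 23.3 and 23.0 CPM in mCaPS, 4.79, 19.5 and 11.6 CPM in KO, and 8.31, 14.4 and 4.39 CPM in WT. The 3 mCaPS libraries all lay above the WT ones, CaPS and KO overlapped WT, and the lowest library was a CaPS one. In these bulk samples fewer cells of a type and less RNA per cell cannot be told apart.

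Ccl7, a chemokine for monocytes, and Ccl11, eotaxin, a chemokine for eosinophils, are neighbours on chromosome 11 (mm10, 82045712 to 82047523 and 82057832 to 82062955, both plus strand). Over the 12 EB libraries of day 0, Ccl7 lay between 7.66 and 50.2 CPM with a median of 20.6 CPM. Ccl11 lay between 2.87 and 26.5 CPM with a median of 12.9 CPM. Mmp3, stromelysin-1, a protease that cuts matrix proteins (chromosome 9, 7445822 to 7455974, plus strand), was at 167, 75.4 and 157 CPM in CaPS, 127, 102 and 32.4 CPM in mCaPS, 65.3, 103 and 74.9 CPM in KO, and 67.2, 63.0 and 179 CPM in WT. Each line overlapped WT for all 3 genes. The lowest Mmp3 and Ccl11 values came from the mCaPS library numbered 3, in which Rn45s took 88.7% of the counts; the part of that share in the values was not tested.

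Il1rl1, the ST2 receptor for interleukin 33 (chromosome 1, 40429570 to 40465414, plus strand), had a median of 79.0 CPM and a range of 24.6 to 150 CPM on day 0 of the EB series. S100a4, a calcium-binding protein also called fibroblast-specific protein (chromosome 3, 90603770 to 90606045, plus strand), ranged over 12.8 to 157 CPM around a median of 50.0 CPM. Mgp, an inhibitor of calcification (chromosome 6, 136872435 to 136875823, minus strand), ranged over 3.68 to 39.5 CPM, with a median of 12.9 CPM. CaPS, mCaPS and KO libraries each overlapped those of WT for these genes. Dcn, the matrix proteoglycan decorin (chromosome 10, 97479500 to 97518163, plus strand), had a median of 41.5 CPM in a range of 3.83 to 62.3 CPM. Prrx1 (chromosome 1, 163245119 to 163313650, minus strand), a homeobox factor of limb and facial mesenchyme, ranged over 17.2 to 129 CPM around 59.0 CPM. Twist2 (chromosome 1, 91801461 to 91848034, plus strand), a helix-loop-helix factor of dermal mesenchyme, ranged over 2.79 to 34.3 CPM around 12.8 CPM. No other gene of the table overlapped the span of any of the 10.

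Levels of different genes were compared per kilobase of exon (RPKM). In WT stem cells of the EB series S100a4 was highest at a mean of 163 RPKM (68.2 to 316), followed by Mmp3 at 57.3 RPKM (35.0 to 99.4). Ccl7, Mgp, Dcn, Saa3, Twist2, Il1rl1, Ccl11 and Prrx1 followed with means of 30.6 to 9.23 RPKM. Neighbours in this order overlapped across the 3 libraries. In WT stem cells of the NPC series Saa3 came first at 99.5 RPKM (15.6 to 206), then S100a4 at 85.1 RPKM and Mmp3 at 84.7 RPKM, and Prrx1 was again last at 9.32 RPKM. The first 3 overlapped here too.

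**Figure D1:**
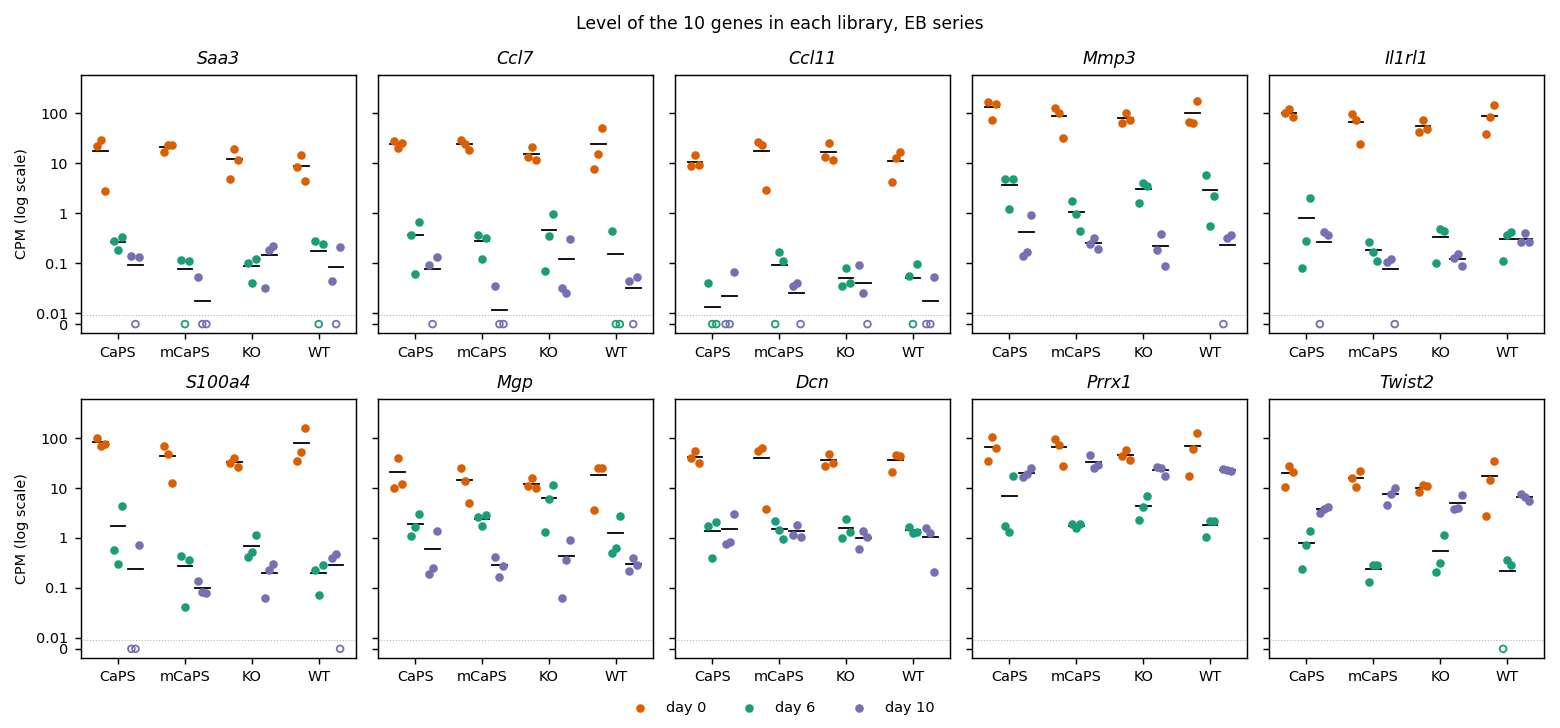
Level of each gene in every EB library (CPM, log axis), by line, with days 0, 6 and 10 in colour, zeros as open circles at the foot and short lines for means of 3 libraries. Day 0 lies above day 6 and day 10 for Saa3, Ccl7, Ccl11 and Mmp3, while Prrx1 and Twist2 are higher on day 10 than on day 6, apart from 1 CaPS library of day 6 with 17.5 CPM of Prrx1.

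In each line every EB library of day 6 lay below every one of day 0 for all 10 genes, except for Mgp in KO, with up to 11.8 CPM on day 6 and no less than 10.2 CPM on day 0. Over 12 libraries a day, the highest Saa3 level was 0.341 CPM on day 6, and on day 10 it was 0.216 CPM. The highest Ccl11 level was 0.165 CPM on day 6, and on day 10 it was 0.0936 CPM. Both were at 0 in some libraries of each later day. A count of 3 in a library was taken as the floor, which covers counting error only, and since even numbers were in excess, these counts may hold fewer fragments.

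Between day 6 and day 10 of the EB series Prrx1 rose in mCaPS and KO, and Twist2 rose in CaPS, mCaPS and KO; both were higher in all WT libraries of day 10 than of day 6. Prrx1 was at 16.3, 19.1 and 25.7 CPM on day 10 in CaPS, against 1.74, 1.29 and 17.5 CPM on day 6. In mCaPS it was at 44.9, 25.6 and 28.5 CPM on day 10, against 1.87, 1.57 and 1.88 CPM on day 6. In KO it was at 25.9, 24.8 and 17.7 CPM on day 10, against 2.31, 4.17 and 6.88 CPM on day 6. The days did not overlap in mCaPS and KO and overlapped in CaPS, through the day 6 library numbered 3. In WT Prrx1 was at 24.0, 22.6 and 22.4 CPM on day 10, against 1.07, 2.18 and 2.19 CPM on day 6, with no overlap.

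The changes were tested in edgeR's quasi-likelihood fit of all 36 libraries, without pairing by replicate number and with Benjamini-Hochberg adjustment over 17791 genes. Prrx1 rose by a log2 fold change of 4.22 ± 0.73 (SE) in mCaPS (adjusted p = 7.06e-05) and by 2.36 ± 0.67 in KO (adjusted p = 0.0239). In WT, whose day 10 libraries were taken to have entered the choice of genes, the value was 3.64 ± 0.72. In CaPS its difference of 1.71 ± 0.68 did not pass (adjusted p = 0.118). The CaPS day 6 library with 17.5 CPM had the fewest counts of the series, 10.6 M, of which Rn45s took 63.0%; the part of either was not tested. In the KO line the Prrx1 call was lost without day 6 library 1 or 2 or day 10 library 1 or 2 (adjusted p = 0.0612 to 0.128). With the replicate number as a block in edgeR, which paired the KO libraries, Prrx1 rose by 2.47 (adjusted p = 0.0299) and Twist2 by 3.45 (adjusted p = 0.00775).

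Twist2 was at 3.23, 3.79 and 4.16 CPM on day 10 in CaPS, against 0.243, 0.735 and 1.36 CPM on day 6. In mCaPS it was at 4.50, 7.71 and 10.1 CPM on day 10, against 0.134, 0.288 and 0.289 CPM on day 6. In KO it was at 3.76, 3.94 and 7.31 CPM on day 10, against 0.205, 0.318 and 1.12 CPM on day 6. The days did not overlap in these 3 lines. In WT it was at 7.65, 6.51 and 5.59 CPM on day 10, against 0, 0.363 and 0.286 CPM on day 6, again without overlap. By edgeR the log2 fold change was 2.46 ± 0.74 (SE) in CaPS (adjusted p = 0.037), 4.96 ± 0.76 in mCaPS (adjusted p = 1.58e-05), and 3.19 ± 0.69 in KO (adjusted p = 0.00323), and the value in WT was 4.78 ± 0.79. In CaPS it was 2.10 without the 6 libraries that stood apart (adjusted p = 0.0520) and 2.52 with the replicate number as a block (adjusted p = 0.0754), so the call in CaPS ended under both. It also ended without CaPS day 6 library 1 or 2 or day 10 library 2 or 3 (adjusted p = 0.0683 to 0.151). Without the 6 libraries that stood apart the WT values were 3.35 for Prrx1 and 4.22 for Twist2.

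Between the same days Mmp3 fell in CaPS and KO, and Mgp fell in mCaPS and KO. Mmp3 was at 0.141, 0.167 and 0.933 CPM on day 10 in CaPS, against 4.86, 1.22 and 4.77 CPM on day 6. In KO it was at 0.187, 0.386 and 0.0862 CPM on day 10, against 1.57, 4.05 and 3.43 CPM on day 6. In WT it was at 0, 0.314 and 0.368 CPM on day 10, against 5.85, 0.544 and 2.22 CPM on day 6. Every day 10 library lay below every day 6 library of its line. By edgeR Mmp3 fell by a log2 fold change of -2.99 ± 0.83 (SE) in CaPS (adjusted p = 0.0264) and -3.69 ± 0.81 in KO (adjusted p = 0.00321), and its value in WT was -3.51 ± 0.87. In mCaPS the change of -2.05 ± 0.80 did not pass (adjusted p = 0.0522), and it passed without the 6 libraries that stood apart (adjusted p = 0.0300). In CaPS the Mmp3 call was lost without those libraries, at -2.12 (adjusted p = 0.154), with the replicate number as a block (adjusted p = 0.0639), and without its day 6 library 1 or day 10 library 1 or 2 (adjusted p = 0.0769 to 0.102). In WT the value was -2.05 without the 6 libraries and -2.52 without day 6 library 1 alone.

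Mgp was at 0.417, 0.162 and 0.271 CPM on day 10 in mCaPS, against 2.57, 1.77 and 2.85 CPM on day 6. In KO it was at 0.0624, 0.360 and 0.905 CPM on day 10, against 1.30, 5.99 and 11.8 CPM on day 6. Mgp fell by a log2 fold change of -3.06 ± 0.90 in mCaPS (edgeR, adjusted p = 0.0101) and by -3.87 ± 0.90 in KO (adjusted p = 0.00561), with no overlap of the days. In CaPS it did not pass, at -1.54 ± 0.90 (adjusted p = 0.312), and in WT the value was -2.12 ± 0.94. Ccl7 in mCaPS was at 0.0348, 0 and 0 CPM on day 10, against 0.368, 0.124 and 0.325 CPM on day 6, and fell by -4.15 ± 1.44 (adjusted p = 0.0199). That call rested on few counts and ended without mCaPS day 6 library 1 or day 10 library 2 or 3 (adjusted p = 0.0569 to 0.0756). The Mgp call in mCaPS ended without its day 10 library 2 (adjusted p = 0.0535).

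In all, 2 of 10 genes changed in CaPS, where 7.79% of all genes tested were called. In mCaPS 4 of 10 changed, against 29.1% of all genes, and in KO 4 of 10, against 9.07%. The 4 in mCaPS include Ccl7, whose call rested on few counts. In WT, where the choice of genes was taken to have used the day 10 libraries, 3 of 10 were called, against 16.2% of all genes. The median log2 fold change of the 10 was -1.12 in CaPS, -1.58 in mCaPS, -1.01 in KO and -0.65 in WT, and that of all genes lay between 0 and 0.03. Saa3, Ccl11, Il1rl1, S100a4 and Dcn passed in none of the 4 lines. DESeq2 called 2, 5, 4 and 3 of the 10 in CaPS, mCaPS, KO and WT. Without the 6 libraries that stood apart none of the 10 was called in CaPS and 2 were in WT. With the replicate number as a block, which paired the libraries of CaPS, KO and WT, 0, 4 and 2 were called.

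**Figure D2:**
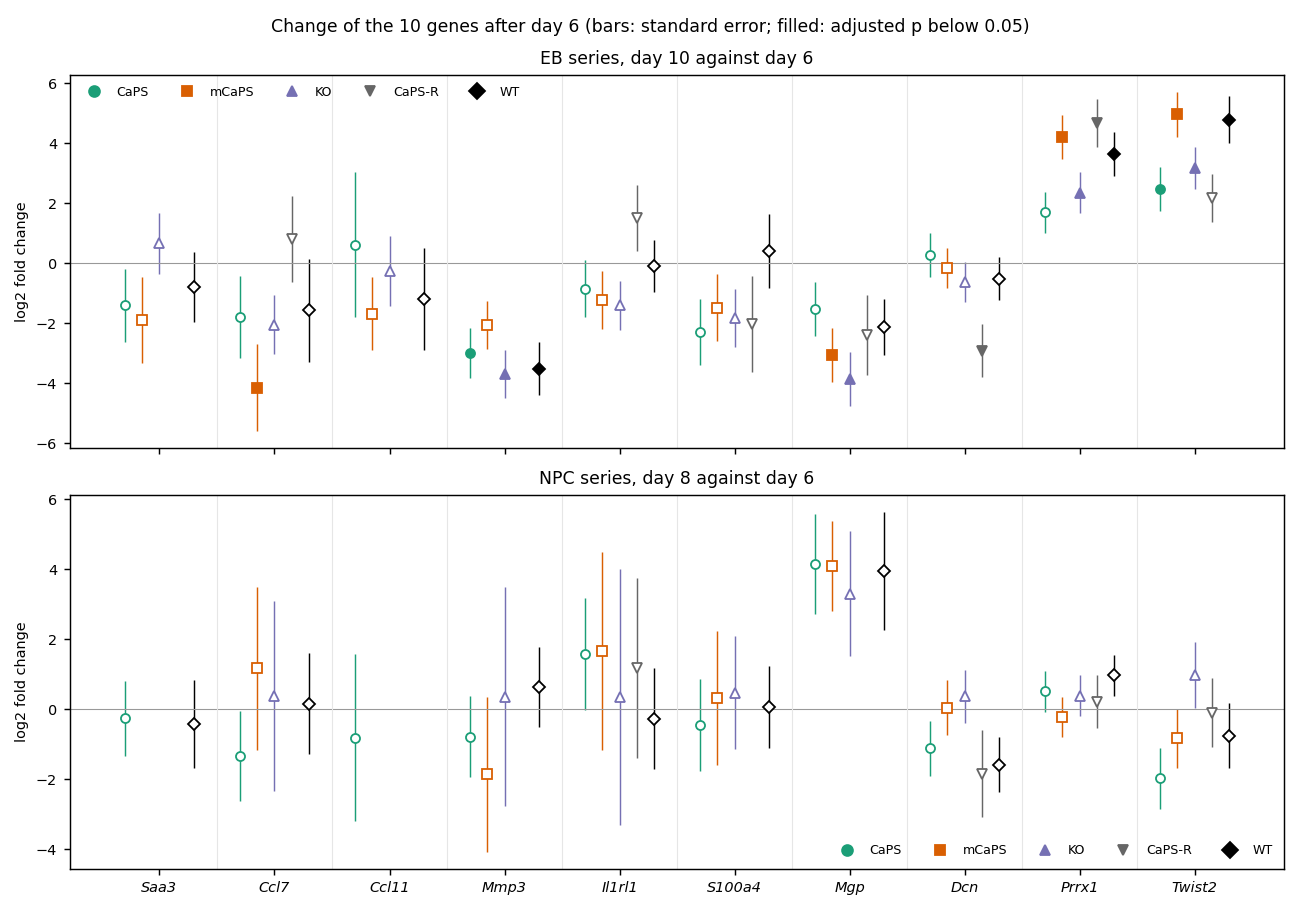
Log2 fold change of each gene on the last day against day 6, by line, with standard errors; filled symbols have an adjusted p below 0.05 and comparisons with a group at 0 in all libraries are not drawn. In EBs Prrx1 and Twist2 lie above 0 in every line and Mmp3 and Mgp below it, while no symbol is filled in NPCs.

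The make-up of the summed RPKM of the 10 genes followed these opposite courses. On day 0 of the EB series the sum was 147 to 626 RPKM, of which Saa3, Ccl7, Ccl11, Mmp3, Il1rl1 and S100a4 gave 70.1% to 89.0%. On day 6 the sum was 2.66 to 27.2 RPKM and these 6 gave 18.7% to 73.4%, and on day 10 it was 5.73 to 12.7 RPKM and they gave 2.09% to 19.8%. The share of Prrx1 and Twist2 was 2.75% to 13.8% on day 0. It was 2.17% to 21.2% on day 6, and it reached 51.55% to 90.5% on day 10. All day 10 libraries had a higher share from the 2 transcription factors than any library of day 0 or day 6. The lowest of them, at 51.55%, was a CaPS library.

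**Figure D3:**
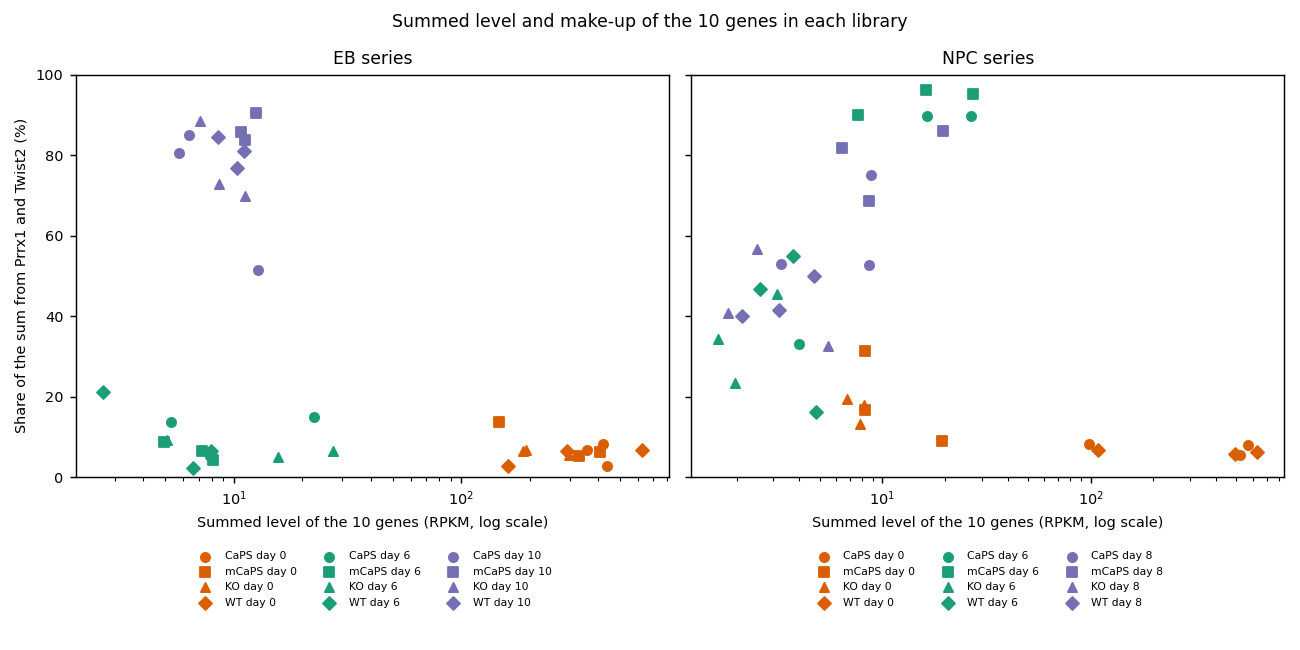
Summed level of the 10 genes (x axis, RPKM, log scale) against the share of that sum from Prrx1 and Twist2 (y axis, percent), one symbol per library, shaped by line and coloured by day. EB day 0 libraries lie at 147 to 626 RPKM with shares up to 13.8%, and EB day 10 libraries at 5.73 to 12.7 RPKM with shares of 51.55% or more.

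Other genes of the same kinds were counted from lists written with these results known. Genes named from a list here and in the next paragraph were picked by lowest adjusted p in WT. Their p-values are therefore a description. Of 19 further mesenchyme transcription factors, 7 rose and 0 fell by edgeR in CaPS EBs from day 6 to day 10. In mCaPS 13 rose and 1 fell, in KO 12 rose and 0 fell, and in WT 12 rose and 1 fell. Of all genes tested, 7.79%, 29.1%, 9.07% and 16.2% were called in CaPS, mCaPS, KO and WT. In WT, Foxf1, a factor of gut mesenchyme, averaged 32.3 ± 18.6 CPM on day 10 and 0.118 ± 0.0252 CPM on day 6 (SD, n = 3), a log2 fold change of 8.08 ± 1.13 (edgeR adjusted p = 3.05e-05). Meox1, of the somites, rose by 6.47 ± 0.97 (adjusted p = 6.1e-05) and Hand2, of heart and limb, by 7.74 ± 1.18 (adjusted p = 7.11e-05). The list's median log2 fold change in WT was 2.69, against 0 for all genes.

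Of 23 fibroblast matrix and surface genes, 3 rose in CaPS and none fell, 13 rose and 1 fell in mCaPS, 8 rose and 2 fell in KO, and 8 rose and none fell in WT (edgeR). Fbn1, which encodes fibrillin, rose in WT by 3.08 ± 0.46 (adjusted p = 6.56e-05), and the platelet-derived growth factor receptors Pdgfra and Pdgfrb rose by 4.54 ± 0.77 (adjusted p = 0.000185) and 3.41 ± 0.65 (adjusted p = 0.000597). Of 21 inflammatory secreted genes 1 rose and 1 fell in CaPS, 1 rose and 3 fell in mCaPS, 1 rose and 3 fell in KO, and none rose and 2 fell in WT. These counts stand against 7.79%, 29.1%, 9.07% and 16.2% of all genes called in CaPS, mCaPS, KO and WT. Those of the inflammatory list in CaPS, mCaPS and WT lie near or below that share. Those of the matrix list in mCaPS, KO and WT lie above it. In WT the 2 were Mmp10, stromelysin-2 (-3.09 ± 1.03, adjusted p = 0.0354), and Cxcl5, a chemokine for neutrophils, which was at 0 in all day 10 libraries (adjusted p = 0.0296). The median log2 fold changes in WT were 1.36 for the matrix list and -0.11 for the inflammatory list. Of 7 genes of the interleukin 33 pathway only the adaptor kinase Irak2 passed in WT, and it rose by 1.21 ± 0.30 (adjusted p = 0.00578).

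Macrophages also make chemokines and Saa3. Of 8 macrophage genes the summed level was 7.64 to 15.3 CPM in CaPS, 9.96 to 15.3 CPM in mCaPS, 9.41 to 12.9 CPM in KO and 11.3 to 17.7 CPM in WT on day 0 of the EB series. Ptprc, the leukocyte surface protein CD45, was at 0 in all mCaPS libraries of that day. Saa1, Saa2 and Saa4, the other serum amyloid A genes, summed to 0 to 0.175 CPM on day 0, and Saa4 was at 0 in all 12 libraries. The part of other cell types in the levels of the 10 genes was not tested.

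No difference between a line and WT passed for any of the 10 genes in EBs. In edgeR's fit 0 of 90 comparisons passed (CaPS, mCaPS and KO against WT on 3 days), with 4 at an unadjusted p below 0.05, and DESeq2 called 0. Without the 6 libraries that stood apart the count was 0 too. Gapdh set mCaPS and KO libraries apart from WT ones in every replicate number, and the part of this was not tested. On days 0, 6 and 10 edgeR called 0%, 0% and 0.00562% of all genes in CaPS, 0.916%, 0.54% and 0.708% in mCaPS, and 0.641%, 0.646% and 0.877% in KO. The change from day 6 to day 10 relative to that of WT passed for 0 of 30 comparisons in edgeR and in DESeq2. Unadjusted, 2 were below 0.05. These comparisons use WT libraries of day 10, which were taken to have entered the choice of genes, so they are a description. In CaPS the values were -1.94 ± 0.95 for Prrx1 and -2.32 ± 1.04 for Twist2. In these interaction tests edgeR called 0%, 0% and 0.00562% of all genes in CaPS, mCaPS and KO.

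In the NPC series the lines separated on day 0. Saa3 was at 141, 14 and 12.3 CPM in CaPS, 0.0512, 0.328 and 0.285 CPM in mCaPS, 0.140, 0.164 and 0.206 CPM in KO, and 109, 41.1 and 8.30 CPM in WT. Mmp3 was at 77.1, 103 and 25.0 CPM in CaPS, 0.768, 1.39 and 6.93 CPM in mCaPS, 1.12, 1.07 and 2.31 CPM in KO, and 82.8, 340 and 34.2 CPM in WT. Ccl11 was at 14.6, 18.6 and 3.09 CPM in CaPS, 0.0512, 0.246 and 0 CPM in mCaPS, 0 CPM in all 3 KO libraries, and 15.7, 15.5 and 2.97 CPM in WT. All mCaPS and KO libraries lay below all CaPS and WT libraries for each of these genes. The transcription factors separated as well. Prrx1 was at 60.3, 165 and 20.2 CPM in CaPS, 2.28, 2.21 and 5.08 CPM in mCaPS, 2.33, 1.48 and 2.49 CPM in KO, and 63.8, 119 and 25.4 CPM in WT. Twist2 was at 27.7, 30.4 and 7.18 CPM in CaPS, 3.07, 1.43 and 1.43 CPM in mCaPS, 1.52, 1.48 and 0.926 CPM in KO, and 26.9, 31.9 and 5.15 CPM in WT. The lowest CaPS and WT values of all 5 genes came from the libraries numbered 3.

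**Figure D4:**
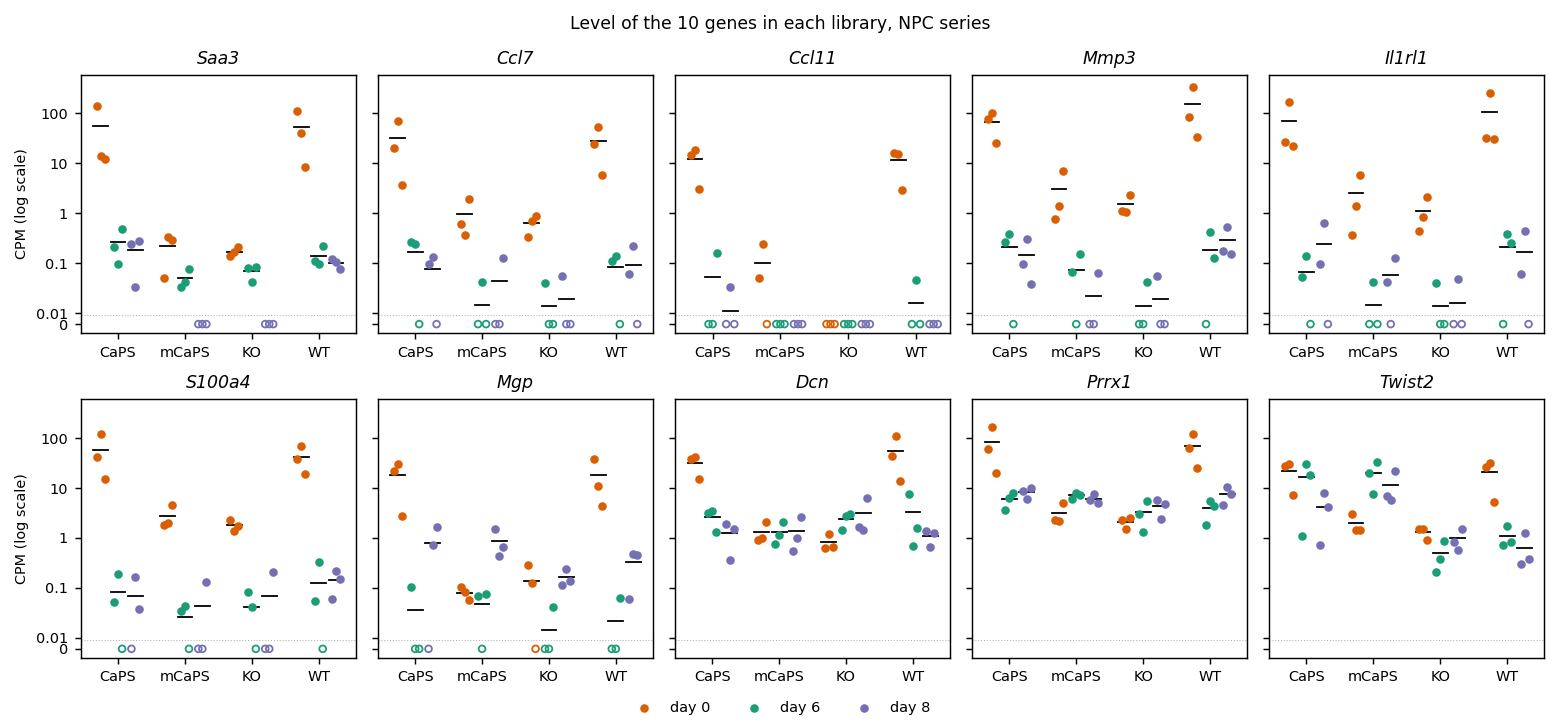
Level of each gene in every NPC library (CPM, log axis), by line, with days 0, 6 and 8 in colour, zeros as open circles at the foot and short lines for means of 3 libraries. On day 0 the mCaPS and KO libraries lie below the CaPS and WT libraries for each gene, and Twist2 on days 6 and 8 is higher in mCaPS than in WT.

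The mCaPS and KO levels of all 10 genes lay below those of WT on day 0 of the NPC series. In mCaPS all 10 were called lower by edgeR, as were 1.97% of all genes, and for all 10 the groups did not overlap, as for 11.6% of all genes. In KO all 10 were called lower, as were 3.11% of all genes, with no overlap, as for 10.6% of all genes. The WT libraries of day 0 had been used to choose the genes as high there, so these counts test nothing about them and the values are a description. The log2 fold change in mCaPS was -7.86 ± 1.04 (SE) for Saa3, -4.87 ± 1.04 for Ccl7, -6.71 ± 1.18 for Ccl11 and -5.66 ± 0.93 for Mmp3. For Il1rl1, S100a4, Mgp, Dcn, Prrx1 and Twist2 it ranged from -7.73 ± 1.34 (Mgp) to -3.43 ± 0.92 (Twist2). In KO the values of the 9 genes with counts ranged from -8.25 ± 1.06 for Saa3 to -4.02 ± 0.95 for Twist2. Ccl11, at 0 in all KO libraries, was at least 153-fold lower in KO than in WT against a floor of 3 counts per library. In mCaPS 20 of 110 alternatives ended a gene's call: that of Twist2 ended without any one of WT libraries 1 and 2 and mCaPS libraries 1, 2 and 3, those of Ccl7, Il1rl1 and S100a4 without WT library 2 or mCaPS library 1 or 2, and that of Ccl11 without mCaPS library 1 and by DESeq2. The call of Twist2 also ended with no filter on low counts, and those of Ccl7, Mmp3 and Il1rl1 with the replicate number as a block, which did not pair these libraries. In KO 2 of 110 did, both for Twist2, without KO library 1 or 2. CaPS was called for 0 of 10 genes (edgeR, 0 at an unadjusted p below 0.05, and 0 by DESeq2), where 0% of all genes were called. With the replicate number as a block, which paired these libraries, Il1rl1 was called at -0.47.

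The mCaPS and KO libraries were also set against CaPS, after the separation had been seen. CaPS libraries deviated together with the WT libraries of the same number (r = 0.527, 0.577 and 0.560), so this too is a description. All 10 genes were called lower in mCaPS than in CaPS, as were 1.71% of all genes, and in KO than in CaPS, as were 3.88%. The log2 fold change of Saa3 was -7.94 ± 1.04 in mCaPS and -8.33 ± 1.06 in KO, and that of Twist2 was -3.46 ± 0.93 in mCaPS and -4.05 ± 0.95 in KO. Without mCaPS library 1 edgeR called 13 of the 20 comparisons.

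On day 0 of the EB series edgeR and DESeq2 had called none of the 10 in mCaPS and KO, and the difference between the series was not tested. Summed over the 10 genes, the day 0 libraries of the NPC series held 98.5 to 568 RPKM in CaPS, 8.23 to 19.4 RPKM in mCaPS, 6.77 to 8.13 RPKM in KO and 108 to 632 RPKM in WT. In EBs on day 0 the sums were 357 to 437 RPKM in CaPS, 147 to 409 RPKM in mCaPS, 188 to 299 RPKM in KO and 160 to 626 RPKM in WT. The 6 secreted and inflammatory genes gave 61.3% to 85.4% of the NPC day 0 sum in mCaPS and KO and 77.2% to 84.0% in CaPS and WT. Prrx1 and Twist2 gave 9.04% to 31.4% in mCaPS and KO and 5.57% to 8.22% in CaPS and WT. Matrix and surface genes summed to 2274 to 10202 CPM in CaPS, 1830 to 2298 CPM in mCaPS, 1707 to 2388 CPM in KO and 2579 to 9993 CPM in WT. These sums were lower in mCaPS and KO than in WT, while the lowest CaPS library lay within the mCaPS and KO ranges. The part of leftover feeder RNA in these differences was not tested.

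Lists of other genes were counted on day 0 of the NPC series in edgeR. Of all genes, 1.97% were called lower in mCaPS than in WT and 3.11% in KO. The lists were written with the results known, and these WT libraries had been used to choose the 10. The counts are therefore a description. Of 20 inflammatory secreted genes tested, 10 were lower in mCaPS than in WT and 16 in KO than in WT. Of 23 matrix and surface genes 16 were lower in mCaPS and 18 in KO. Of 19 mesenchyme transcription factors 5 were lower in mCaPS and 4 in KO, and none of these 3 lists had a gene that was higher. Their median log2 fold changes were -4.62, -3.76 and -1.30 in mCaPS and -5.22, -3.85 and -1.31 in KO. Of 7 macrophage genes tested none changed in mCaPS and 1 was lower in KO, and the 8 macrophage genes summed to 10.0 to 11.5 CPM in mCaPS, 9.64 to 17.8 CPM in KO and 10.3 to 20.6 CPM in WT. Summed levels of markers of some other cell types also differed between the lines. Cartilage genes summed to 35.7 to 99.4 CPM in mCaPS, 41.2 to 70.5 CPM in KO and 19.97 to 31.2 CPM in WT, with no overlap of mCaPS or KO with WT, and of 7 tested 1 was called higher and 1 lower in each line. Neural progenitor genes summed to 435 to 653 CPM in mCaPS, 377 to 452 CPM in KO and 144 to 391 CPM in WT, and the KO libraries overlapped those of WT. Endothelium genes summed to 32.5 to 48.0 CPM in mCaPS, 43.4 to 58.1 CPM in KO and 23.8 to 34.3 CPM in WT, and mCaPS overlapped WT. Smooth muscle genes summed to 265 to 695 CPM in mCaPS, 234 to 461 CPM in KO and 66.1 to 328 CPM in WT, and both overlapped WT. Pluripotency genes summed to 1743 to 2180 CPM in mCaPS, 1671 to 2535 CPM in KO and 2379 to 2623 CPM in WT, with mCaPS below WT throughout. None of the neural, endothelium, smooth muscle and pluripotency genes was called in mCaPS or KO, and the part of these cell types in the levels of the 10 genes was not tested.

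Most but not all of the 10 genes had levels that moved together from library to library on day 0. Over the 12 EB libraries Pearson's r of each gene's log2 CPM with the mean of the other 9 was 0.93 for Il1rl1, 0.89 for Prrx1 and 0.87 for Mgp. It was 0.49 for Twist2 and -0.04 for Saa3, with the other 5 between 0.63 and 0.75. In the NPC series the libraries fell into 2 clusters, so r was taken within each. Over the 6 CaPS and WT libraries it was 0.46 for Saa3, 0.64 for Il1rl1 and 0.79 to 0.97 for the others, and over the 6 mCaPS and KO libraries it was -0.45 for Mgp, -0.31 for Twist2, -0.18 for Ccl11 and 0.54 to 0.84 for the others. In EBs the 6 mCaPS and KO libraries gave -0.32 for Twist2. These values describe libraries that share depth, scaling and composition. The genes outside the 10 with the closest course, by the lower of the r values of the 2 series over 12 day 0 libraries each and among 13145 genes above 1 CPM, were Vcam1, Sh3kbp1, Cdh11, Itga4, Rbms3, Cd44, Postn and Ctsk. Their lower r ran from 0.953 for Vcam1 to 0.918 for Ctsk.

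On days 6 and 8 of the NPC series most of the 10 were near or at 0. Ccl11 was at 0 in 10 of 12 libraries on day 6 and in 11 of 12 on day 8. The highest Mmp3 level was 0.423 CPM on day 6, and on day 8 it was 0.538 CPM. For Il1rl1 the highest was 0.376 CPM on day 6, and on day 8 it was 0.634 CPM. Dcn, Prrx1 and Twist2 stayed measurable: Dcn had medians of 1.84 CPM on day 6 and 1.41 CPM on day 8, and Prrx1 of 5.57 CPM and 5.98 CPM. In contrast to EBs, where Prrx1 reached 16.3 to 44.9 CPM on day 10, its highest value on day 8 of NPCs was 10.6 CPM; the days differ and the series were not tested against each other.

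None of the 10 passed between day 6 and day 8 of the NPC series. In edgeR 0 of 50 comparisons over the 5 lines passed, with 4 at an unadjusted p below 0.05, and DESeq2 called 0. The share of all genes called was 3.18% in CaPS, 0.264% in mCaPS, 5.01% in KO, 7.43% in CBX7-CaPS-R and 7.34% in WT. Of the 4, 3 were of Mgp, which was at 0, 0.734 and 1.68 CPM on day 8 in CaPS, against 0.106, 0 and 0 CPM on day 6. In mCaPS Mgp was at 1.51, 0.432 and 0.647 CPM on day 8, against 0.0676, 0 and 0.0763 CPM on day 6. In WT, whose day 8 libraries were taken to have entered the choice of genes, Mgp was at 0.0593, 0.485 and 0.450 CPM on day 8. On day 6 it was at 0, 0 and 0.0636 CPM. The days overlapped in CaPS and WT and not in mCaPS. With the replicate number as a block, Twist2 fell in CaPS by -1.67 (adjusted p = 0.0428), and these libraries were paired by number. The change after day 6 relative to WT passed for 0 of 30 comparisons (edgeR, 0 at an unadjusted p below 0.05, and 0 by DESeq2), with 0% of all genes called.

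Twist2 was the one gene of the 10 that edgeR called higher in a line than in WT after day 0. On day 6 of NPCs it was at 1.11, 30.9 and 18.2 CPM in CaPS, 19.6, 7.77 and 33.1 CPM in mCaPS, 0.204, 0.377 and 0.886 CPM in KO, and 0.707, 1.74 and 0.827 CPM in WT. On day 8 it was at 0.727, 7.78 and 4.23 CPM in CaPS, 6.82, 5.66 and 21.5 CPM in mCaPS, 0.846, 0.565 and 1.53 CPM in KO, and 0.297, 1.24 and 0.375 CPM in WT. All mCaPS libraries lay above all WT libraries on both days, while CaPS library 1 lay within the WT range. WT libraries of day 6 may have entered the choice of genes as low, so p-values against WT on that day may not be valid as tests. By edgeR Twist2 was higher in mCaPS than in WT by 4.20 ± 0.96 on day 6 (adjusted p = 0.0253), where 1.35% of all genes were called higher. On day 8, where 9.39% were and the WT libraries were taken to have entered the choice of genes, the value was 4.12 ± 0.98. The day 6 call ended without any one of mCaPS libraries 1 and 3 and WT libraries 1, 2 and 3 (adjusted p = 0.0769 to 0.154), with log2 fold changes of 3.63 to 4.71. In CaPS the value of 3.93 ± 0.95 on day 6 did not pass (adjusted p = 0.194), and that of day 8 was 2.71 ± 0.94. DESeq2 called 1 of 10 genes in CaPS on day 6 and 3 of 10 in mCaPS on day 8. By edgeR none of the 10 passed in CaPS on day 6 or day 8, where 0% and 0.0112% of all genes were called, nor in KO, where 0.0281% and 0.0505% were. Of these comparisons, 5 had an unadjusted p below 0.05.

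Other mesenchyme genes stood with Twist2 in mCaPS on day 8 of NPCs. There 9.39% of all genes were called higher than in WT. The WT libraries of that day were taken to have entered the choice of the 10. Of 19 mesenchyme transcription factors 10 were higher and 2 lower than in WT by edgeR, with a median log2 fold change of 2.30. Of 23 matrix and surface genes 10 were higher and none lower, with a median of 1.59. These genes summed to 1768 to 3172 CPM in CaPS, 2236 to 5188 CPM in mCaPS and 1609 to 1804 CPM in WT. CaPS thus overlapped both mCaPS and WT. Of 6 smooth muscle genes 4 were higher and of 5 endothelium genes all 5. Of 20 inflammatory secreted genes 3 were higher and none lower, a count near the share of all genes. Saa3 was at 0 in all mCaPS libraries, against 0.119, 0.108 and 0.0751 CPM in WT. Of 5 neural progenitor genes 2 were lower and none higher. On day 6 of NPCs, where 1.35% of all genes were called higher, 2 of 19 mesenchyme factors and 3 of 23 matrix genes were higher in mCaPS than in WT. None of either list was lower. Over all 9 comparisons of CaPS, mCaPS and KO with WT, edgeR called 22 of 90 and DESeq2 24 of 90.

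CBX7-CaPS-R was fitted with the other lines over shared genes, 15373 tested in EBs and 15334 in NPCs. In EBs Prrx1 was at 16.1, 12.2 and 21.2 CPM on day 10 and at 0.0793, 1.21 and 0.362 CPM on day 6. It rose by 4.68 ± 0.80 (edgeR, adjusted p = 0.000215), without overlap. Dcn was at 0, 0.70 and 0.242 CPM on day 10, against 1.55, 2.05 and 2.05 CPM on day 6, and fell by -2.91 ± 0.88 (adjusted p = 0.0298). Saa3 was at 0.558, 0 and 0.0242 CPM on day 10 and at 0 on day 6, at least 1.77-fold higher (adjusted p = 0.0474), and this rested on day 10 library 1, without which the adjusted p was 0.51. The Saa3 call also ended without any one day 6 library (adjusted p = 0.0917 to 0.235). It ended as well without the 6 libraries that stood apart (edgeR adjusted p = 0.0563). Without those 6, Mmp3 was called lower (adjusted p = 0.0416) and Twist2 higher (adjusted p = 0.0205) on day 10 than on day 6. In all 3 of 10 genes changed, against 8.69% of all genes. The 3 include the Saa3 call, which rested on few counts. The Dcn call ended without day 6 library 2 or 3 or day 10 library 1 or 3 (adjusted p = 0.0663 to 0.115). The median log2 fold change of the 10 was 0.41, against -0.03 for all genes.

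Set against WT in EBs, CBX7-CaPS-R was called lower in 5 of 30 comparisons by edgeR and in none higher, while DESeq2 called 6. On day 6, where 4.71% of all genes were called lower, Mmp3 was at 0.159, 0.436 and 0.121 CPM in CBX7-CaPS-R, against 6.00, 0.567 and 2.33 CPM in WT in the same fit. Mmp3 was lower by -3.31 ± 0.79 (adjusted p = 0.00538), and without WT day 6 library 1 its value was -2.34 (adjusted p = 0.0739). The other 4 calls used WT libraries that were taken to have entered the choice of genes, and the WT libraries of day 6 may have entered it too. On day 0, where 6.26% of all genes were called lower, Mmp3 was at 26.5, 23.4 and 32.8 CPM in CBX7-CaPS-R, against 67.8, 65.7 and 190 CPM in WT, a log2 fold change of -1.97 ± 0.65, and that of Dcn was -2.30 ± 0.70. Both calls ended without WT library 2 or 3 or without CBX7-CaPS-R library 1 or 2, and that of Mmp3 also without CBX7-CaPS-R library 3, with RLE scaling, with no filter on low counts and without Rn45s. On day 10, where 9.05% were called lower, Mmp3 was at 0 in all CBX7-CaPS-R libraries, against 0, 0.327 and 0.382 CPM in WT, at least 1.61-fold lower. That call ended without WT library 2 or 3 or any one CBX7-CaPS-R library, and with no filter on low counts. Twist2 was at 0.558, 0.525 and 1.11 CPM on day 10 in CBX7-CaPS-R, against 7.89, 6.79 and 5.82 CPM in WT, without overlap and at -3.16 ± 0.73.

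In NPCs all 10 genes were called lower in CBX7-CaPS-R than in WT on day 0, as were 14.4% of all genes, and the median of all genes was -0.18. These WT libraries had been used to choose the genes as high, so the count tests nothing about them. Saa3 was at 1.24, 0 and 0 CPM, against 110, 41.2 and 8.38 CPM in WT. Prrx1 was at 0.886, 12 and 3.17 CPM, against 64.3, 119 and 25.6 CPM in WT, a log2 fold change of -3.71 ± 0.82. Mgp, at 0 in all CBX7-CaPS-R libraries, was at least 72.9-fold lower, against a floor of 3 counts per library. The groups did not overlap for any of the 10, as for 22.5% of all genes, and DESeq2 called 9. On days 6 and 8 none of 20 comparisons passed (edgeR, with 1 of the 30 at an unadjusted p below 0.05 beyond those called, and 0 by DESeq2), where 14.6% and 14% of all genes were called. The CBX7-CaPS-R libraries came from a table of their own, so line and table cannot be told apart.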

How the data were processed

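Tables of raw read counts per gene, deposited by the authors, were used as they stand. Per the submitters' processing notes the build was mm10 and the tools were HOMER 4.10.4, featureCounts 1.6.3, STAR 2.7.0, cutadapt 1.14 and edgeR; their settings and the strand rule of counting are not given in the sources used here. Gene names turned into dates were left out (23 in the EB table, 22 in each CBX7-CaPS-R table), as were 1 incomplete row and 9 columns that matched no sample. No 2 libraries of a table held identical counts. Of 36 libraries per series, filterByExpr kept 17791 (EB) and 17818 (NPC) genes. Levels are CPM with trimmed mean of M values (TMM) scaling. Counts were fitted in edgeR 4.0.16 (R 4.3.3, limma 3.58.1) with 12 groups of line and day, and a two-sided quasi-likelihood F test with Benjamini-Hochberg adjustment over all genes tested; an adjusted p below 0.05 was called. The SE is the log2 fold change over the square root of F. CBX7-CaPS-R entered fits of 45 libraries in 15 groups. Tests were tried on simulated counts with known changes. The alternatives were DESeq2 1.42.0, RLE scaling, no filter, Rn45s left out, the 6 EB libraries that stood apart left out, each library left out, and the replicate number as a block.

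The members and the lists were chosen with earlier results of these data known, and so were the tests. All 10 genes are named. Other genes are named as the up to 3 of lowest adjusted p in a list in WT EBs or WT NPCs after day 6, or as the 8 most like the 10 on day 0. The comparison with CaPS was chosen after seeing the data. Comparisons that use WT libraries of day 0 or of the last day, which were taken to have entered the choice of genes, are given as a description. Whether WT libraries of day 6 entered it as well is not known. The labels give replicate numbers without saying what they mark. Same-numbered libraries were taken as paired where the correlation of their deviations from group means was over 0.1 for all 3 numbers: for CaPS against WT on every day of both series, for day 10 against day 6 in CaPS, KO and WT EBs, and for day 8 against day 6 in CaPS, mCaPS and CBX7-CaPS-R NPCs.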

Additional observations from a re-analysis of the deposited data

Results flagged for a closer look

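Mgp levels lay in opposite order after day 6 in the EB and the NPC series, in KO and mCaPS. In KO, every EB library of day 10 (mean 0.443 CPM) lay below every one of day 6 (mean 6.35 CPM), while every NPC library of day 8 (mean 0.162 CPM) lay above every one of day 6 (mean 0.0141 CPM). In mCaPS the means were 0.283 CPM on day 10 and 2.40 CPM on day 6 in EBs, and 0.862 CPM on day 8 and 0.0480 CPM on day 6 in NPCs. The EB changes passed edgeR's test and the NPC ones did not, and in KO the NPC levels rest on 4, 10 and 4 counts on day 8 and 0, 0 and 2 on day 6, around the floor of 3 counts. The last days differ between the series, which were fitted apart, and the difference between them was not tested.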

How the results depend on the processing

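The 73 changes of single genes that were called kept their direction in all 821 alternatives and lost the call in 109. Most of them were day 0 comparisons in NPCs, given as a description. The choice of genes as high in WT stem cells may have favoured their direction. The 16 of EB day 10 against day 6, WT included, kept their direction in 190 alternatives and lost the call in 33. For EB day 10 against day 6 the number of the 10 genes called in CaPS was 2, and 0 both without the 6 libraries that stood apart and with the replicate number as a block, which paired these libraries. In CBX7-CaPS-R it was 3, and 5 by DESeq2, 4 without the 6 libraries and 1 with the block. For CBX7-CaPS-R against WT in EBs it was 5, and 3 with no filter on low counts. Without the 6 libraries it was 7, with S100a4 and Twist2 called lower on day 0 as well. For NPC day 8 against day 6 it was 0 in CaPS and in WT, and 1 in each with the block; in WT, where the numbers did not pair the libraries, this was Prrx1, at a log2 fold change of 0.997. Leaving out single libraries gave 0 to 3 in CaPS, 2 to 5 in mCaPS (4 with all), 3 to 5 in KO (4), 2 to 3 in WT (3) and 1 to 3 in CBX7-CaPS-R for EB day 10 against day 6. It gave 3 to 6 of 30 for CBX7-CaPS-R against WT in EBs, 17 to 23 of 90 for lines against WT in NPCs (22 with all), 13 to 20 for mCaPS and KO against CaPS, and 10 in every case for CBX7-CaPS-R against WT in NPCs. The count in CaPS EBs was 0 without day 6 library 1 or day 10 library 2 and 1 without day 6 library 2 or day 10 library 1, that in mCaPS 2 without day 10 library 2, and that in CBX7-CaPS-R 1 without day 6 library 2 or 3 or day 10 library 1. The block, whose numbers did not pair the libraries there, gave 14 for mCaPS and KO against CaPS and 20 for lines against WT in NPCs. The cause was not tested. Of 240 mean levels, 198 moved by no more than 1 SD when Rn45s was left out of the totals and TMM scaling was not used. Both were changed at once, so the part of each cannot be told apart. After day 0 most secreted genes were at a few counts per library, which limits what could be detected.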

Other observations

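Some genes of other mesodermal cell types rose in EBs from day 6 to day 10. Genes named here and in the next paragraph were picked by lowest adjusted p in WT, so their p-values are a description. The counts below stand against 7.79% of all genes called in CaPS, 29.1% in mCaPS, 9.07% in KO and 16.2% in WT. In WT, 3 of 7 cartilage genes rose and 1 fell by edgeR; Col9a1, a cartilage collagen, rose by a log2 fold change of 6.40 ± 0.96 (SE, adjusted p = 6.56e-05), Sox9, the cartilage regulator, by 4.19 ± 1.06 (adjusted p = 0.00661), and Acan, which encodes aggrecan, fell by -2.08 ± 0.42 (adjusted p = 0.000921). Of 6 smooth muscle genes 3 rose in WT and none fell, among them Acta2, smooth muscle actin, by 4.99 ± 0.93 (adjusted p = 0.000444). Of 5 endothelium genes 4 rose and none fell; Kdr, the receptor for vascular endothelial growth factor, averaged 162 ± 12 CPM on day 10 and 5.04 ± 1.37 CPM on day 6 (SD, n = 3). All 6 pluripotency genes fell in WT and in mCaPS, and 3 of 6 fell in CaPS and in KO. Itgam fell in WT (-2.44 ± 0.66, adjusted p = 0.0103), the 1 of 5 macrophage genes tested that passed there.

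In WT NPCs from day 6 to day 8, where none of the 10 genes changed, 2 of 23 matrix genes rose by edgeR: Vim, which encodes vimentin, by 1.35 ± 0.38 (adjusted p = 0.0293) and Col6a3, a collagen, by 2.45 ± 0.72 (adjusted p = 0.0327). Of 19 mesenchyme transcription factors only Zeb1 rose, by 1.12 ± 0.28 (adjusted p = 0.015). Of 5 neural progenitor genes 2 rose, Sox11 by 1.91 ± 0.36 (adjusted p = 0.00168) and Tubb3, a neuronal tubulin, by 3.27 ± 0.91 (adjusted p = 0.0257). Of 20 inflammatory secreted genes 0 passed. These counts stand against 7.34% of all genes called.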
